A study of Mus musculus with 7 samples.

Results

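Intercalated disc adhesion genes were taken as the rows of the expression table with the symbols Dsp, Pkp2, Jup, Dsg2, Dsc2, Cdh2, Ctnna1, Ctnna3, Ctnnb1 and Tjp1. All 10 were present among 17404 listed genes, and all 10 passed the filter on low values that left 12715 genes for testing. They were compared between untreated neonates of the sister strains BALB/cByJ (3 libraries) and BALB/cJ (4 libraries) at postnatal day 4 (P4), around the peak of neonatal cardiomyocyte S-phase. Each library was RNA from a pool of ventricles, with 3 to 4 hearts per pool per the labels, so the spread between libraries is that between pools. Another passage of the study's text gives a larger pool size, and which holds is not settled here. BALB/cByJ carries the natural deletion in Cyth1, and BALB/cJ carries a retroviral insertion in Zhx2. Both strains are otherwise closely related inbred lines, and no gene of the disc was altered by design. The comparison asks which genes differ in expression between strains whose adult cardiomyocytes differ in ploidy.

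The intercalated disc is the end-to-end junction between cardiomyocytes. In its desmosomes the cadherins desmoglein-2 and desmocollin-2 bind plakoglobin and plakophilin-2, which attach to desmoplakin and through it to desmin filaments. In its adherens junctions N-cadherin binds beta-catenin or plakoglobin, and alpha-catenins link these to actin. In the mammalian heart the junction types mix in an area composita, and mutations of the human desmosomal genes cause arrhythmogenic cardiomyopathy. In rodent ventricle these proteins gather at the cell ends over the weeks after birth, so at P4 the disc is still forming.

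The deposited values are normalized for depth and transcript length, so levels of different genes can be set side by side. Library totals over the listed genes were 543023 to 628977, and read numbers are not known. The strain labels were checked with Cyth1, at 0.1 to 0.19 in BALB/cByJ and 25.77 to 26.98 in BALB/cJ, and with Zhx2, at 5.47 to 7.98 and 0.25 to 0.51. The tissue was checked with 13 cardiomyocyte markers, whose summed value was 54049 to 61355 in BALB/cByJ and 46901 to 52783 in BALB/cJ. Libraries also differed by transcript length. Among genes with the shortest transcripts (1230 genes, median length 916 bases) the median deviation from the gene mean, on log2(value + 1), was 0.055, -0.103 and 0.103 in BALB/cByJ (libraries in order of their numbers, as throughout), with -0.162, 0.109, 0.024 and 0.025 for BALB/cJ. Among those with the longest (1230 genes, median 7665 bases) it was -0.086, 0.009 and -0.117, and 0.058, -0.071, 0.061 and 0.149. The summed value of 4 Y-linked genes was 80.2 to 128 in BALB/cByJ and 0.04 to 37.6 in BALB/cJ, and since the sex of the pooled pups is not given in the labels, strain and the sex makeup of the pools cannot be told apart in full.

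The regulatory sequence of Dsp and Jup is shown beside that of the plakoglobin paralog beta-catenin (Ctnnb1). Dsp and Jup were both highest in BALB/cJ 1 and lowest in BALB/cByJ 3, as was Tjp1, whose window is not printed. Given are the RefSeq windows from 250 bases before to 50 bases after the start. They are from GRCm38.p6, the assembly known as mm10 that the submitters' processing notes name. RefSeq windows were matched for 5 of the 10 genes (Dsp, Jup, Ctnnb1, Tjp1 and Ctnna3). Capitals mark GGGCGG or its reverse complement, the GC box bound by Sp1-type factors. The Dsp window is chr13:38151044-38151343 on the plus strand, the Jup window chr11:100397741-100398040 on the minus strand, and the Ctnnb1 window (the first of its annotated starts) chr9:120933150-120933449 on the plus strand. The Jup window is set from a start that lies inside the outer end of the annotated gene (100397839). Which transcript that start belongs to is not known.
Dsp: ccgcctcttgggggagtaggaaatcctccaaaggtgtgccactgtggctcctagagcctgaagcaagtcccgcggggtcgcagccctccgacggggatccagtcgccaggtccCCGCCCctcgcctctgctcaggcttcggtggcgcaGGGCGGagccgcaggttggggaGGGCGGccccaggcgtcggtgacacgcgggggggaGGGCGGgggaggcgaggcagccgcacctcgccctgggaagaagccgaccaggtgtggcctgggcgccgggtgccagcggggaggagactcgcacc
Jup: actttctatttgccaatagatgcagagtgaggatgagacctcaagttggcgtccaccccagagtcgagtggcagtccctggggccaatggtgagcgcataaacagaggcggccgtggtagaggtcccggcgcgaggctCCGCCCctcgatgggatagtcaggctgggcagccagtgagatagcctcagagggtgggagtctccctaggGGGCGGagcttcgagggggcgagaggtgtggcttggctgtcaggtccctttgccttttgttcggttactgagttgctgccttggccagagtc
Ctnnb1: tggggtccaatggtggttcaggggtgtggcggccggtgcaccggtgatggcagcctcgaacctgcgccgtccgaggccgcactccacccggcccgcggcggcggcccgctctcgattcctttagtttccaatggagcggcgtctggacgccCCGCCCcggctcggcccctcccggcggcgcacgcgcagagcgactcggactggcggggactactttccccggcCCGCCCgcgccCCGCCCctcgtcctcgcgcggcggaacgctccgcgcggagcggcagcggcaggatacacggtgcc
The Dsp window held 4 GC boxes, the Jup window 2 and the Ctnnb1 window 3, and 35.7% of 32851 RefSeq promoter windows of this length held at least 1. Their GC content was 73.0%, 60.7% and 75.3%, against a median of 52.7% over all windows. None of the 3 windows held TATAAA (found in 13.6% of all windows, either strand), CATTCC (the M-CAT element of TEAD factors, 14.7%) or CACGTG (a palindromic E-box, 7.2%). The window of the second annotated Ctnnb1 start (chr9:120933328-120933627), not printed here, held 1 TATAAA. These are letters of the C57BL/6J reference and not of either BALB strain.

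Among the 10 genes the catenin genes Ctnna1 and Ctnnb1 had the highest levels and Ctnna3, of the heart-enriched alpha-T-catenin, the lowest. These are levels in whole ventricle, which also holds cells other than cardiomyocytes, so they do not give the makeup of the disc. Ctnna1, which encodes alpha-E-catenin, averaged 240.5 ± 29.8 (SD over 3 pools) in BALB/cByJ, beside 226 ± 39.4 (SD over 4 pools) for BALB/cJ. Ctnnb1, encoding beta-catenin, was at 218 ± 18.03 (SD over 3 pools) and 201 ± 17.05 (SD over 4 pools). Ctnna3, encoding alpha-T-catenin, which binds plakophilin-2, was at 11.4 ± 1.25 (SD over 3 pools) and 10.9 ± 2.46 (SD over 4 pools). By mean over the 7 libraries the order was Ctnna1 (232), Ctnnb1 (209), Cdh2 (115), Pkp2 (98.1), Dsp (73.03), Jup (70.9), Tjp1 (29.7), Dsg2 (16.96), Dsc2 (14.8) and Ctnna3 (11.1). Dsp was above Jup in 4 of 7 libraries, so these neighbours were not set apart by the spread. Ctnna1 was above Ctnnb1, Cdh2 above Pkp2 and Dsg2 above Dsc2 in 6 of 7 libraries each, and the other neighbours kept their order in 7 of 7. The desmosomal plaque genes Pkp2, Dsp and Jup thus had higher levels than the transmembrane desmosomal cadherins Dsg2 and Dsc2 in every library.

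**Figure D1:**
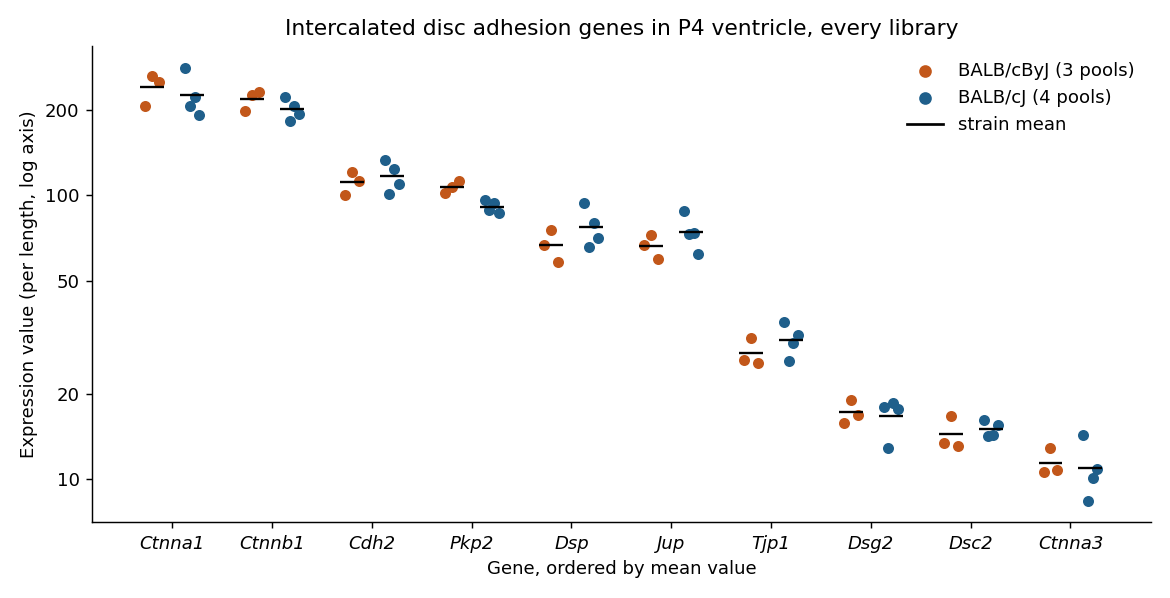
Expression value per library (points; log axis) of the 10 disc adhesion genes, ordered by mean, with BALB/cByJ (3 pools) and BALB/cJ (4 pools) side by side and black lines at strain means. Levels run from 8.41 for Ctnna3 to 282 for Ctnna1, and the strains are apart only for Pkp2, with BALB/cByJ at 102 to 112 and BALB/cJ at 86.7 to 96.3.

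Of the 10 genes, 0 were called between the strains by limma at an adjusted p under 0.05 in either direction, where 0.771% of all genes tested were called higher and 0.881% lower in BALB/cByJ (1.65% in either direction). At an unadjusted p under 0.05, 1 of the 10 passed (Pkp2), against 18.3% of all genes tested. The libraries of the strains did not overlap for 1 of the 10 (Pkp2 again), against 17.0% of all genes tested. Fitted differences were above 0 in BALB/cByJ for 5 genes and below 0 for 5. Their median was -0.01, beside -0.07 for all genes tested. Over the 10 genes the 95% intervals of the difference, as folds on the value + 1 scale, ran from 0.713 at the lowest bound (Dsp) to 1.35 at the highest (Pkp2). In bulk tissue, fewer cells of a type and less RNA per cell cannot be told apart.

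**Figure D2:**
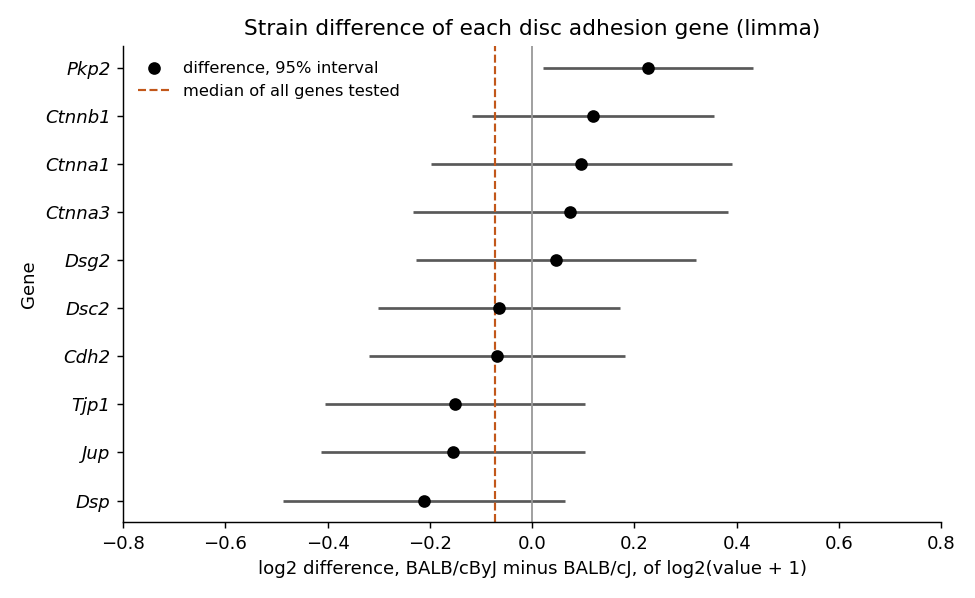
Log2 difference (BALB/cByJ minus BALB/cJ) of each disc adhesion gene on log2(value + 1) from limma, with 95% intervals; the dashed line is the median of all genes tested (-0.07). The interval of Pkp2 alone lies above 0 (0.02 to 0.43), before adjustment over all genes.

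Pkp2 encodes plakophilin-2, the armadillo protein that gathers desmoplakin to the desmosome, and its gene (ID 67451) lies at chr16:16213345-16272712 of GRCm38.p6, the build of all positions given here. Its expression value was 102.26, 106.95 and 112.15 in the BALB/cByJ libraries, and the BALB/cJ libraries stood at 96.28, 88.85, 93.9 and 86.65. Every BALB/cByJ library was thus above every BALB/cJ library, as were those of 4.33% of all genes tested. BALB/cByJ averaged 107 ± 4.95 (SD over 3 pools) and BALB/cJ 91.4 ± 4.44 (SD over 4 pools), which is 1.17 times as much in BALB/cByJ. The log2 difference from limma was 0.23 (standard error 0.10, 95% interval 0.02 to 0.43). Its adjusted p from limma was 0.229, so Pkp2 did not pass over all genes. Over the alternatives the adjusted p ranged from 0.117 to 0.599. Beside Pkp2, the median deviation of the 13 cardiomyocyte markers was -0.017, 0.084 and 0.156 in BALB/cByJ and 0.137, -0.055, -0.07 and -0.173 in BALB/cJ. Of these markers 0 were called by limma, against 1.65% of all genes tested in either direction. In 3, every BALB/cByJ library was above every BALB/cJ library, as for 4.33% of all genes tested. These were Myl3, Pln and Tnni1, named after their values were seen. Log2 differences were below 0 for Myh7 (-0.36), Ttn (-0.16) and Myh6 (-0.03), and above 0 for the other markers. None of the 13 markers was at 0 in any library. The part of the markers' level in the Pkp2 values was not tested.

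Dsp encodes desmoplakin, which ties the desmosomal plaque to desmin, and its gene (ID 109620) lies at chr13:38151294-38198577. Its value was 66.74, 75.39 and 58.12 in BALB/cByJ and 94.15, 65.99, 80.09 and 70.74 in BALB/cJ, so the strains overlapped. The lowest library was BALB/cByJ 3 and the highest BALB/cJ 1, which was 1.62 times as high. The means were 66.8 ± 8.63 (SD over 3 pools) and 77.7 ± 12.4 (SD over 4 pools), and limma gave a log2 difference of -0.21 (standard error 0.13, adjusted p = 0.395). Without BALB/cJ 1 the difference was -0.12, and without BALB/cByJ 3 also -0.12. After median-of-ratios scaling it was -0.14, and after centring on transcript length -0.10. With a covariate for the summed Y-linked genes it was 0.02. The Y-linked sums did not overlap between the strains, so this fit separates strain from the covariate poorly, here and for the genes below.

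Jup (ID 16480, chr11:100368856-100397839) encodes plakoglobin, the catenin shared by desmosomes and adherens junctions. It was at 66.84, 72.5 and 59.83 in BALB/cByJ and 88.33, 73.17, 73.65 and 62.17 in BALB/cJ. As with Dsp, BALB/cJ 1 was highest and BALB/cByJ 3 lowest, and the strains overlapped. By limma it differed by -0.15 on the log2 scale (standard error 0.12, adjusted p = 0.511), and by 0.09 with the Y-linked covariate.

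The desmosomal cadherins had close strain means. Dsg2 (ID 13511, chr18:20558074-20604526), encoding desmoglein-2, was at 15.78, 19.08 and 16.82 in BALB/cByJ and 17.98, 12.84, 18.62 and 17.63 in BALB/cJ, with BALB/cJ 2 below all others. Its log2 difference was 0.05 (95% interval -0.23 to 0.32), and -0.03 without BALB/cByJ 2 or -0.07 without BALB/cJ 2. Dsc2 (ID 13506, chr18:20030633-20059554), encoding desmocollin-2, was at 13.38, 16.73 and 13.12 in BALB/cByJ and 16.2, 14.19, 14.31 and 15.52 in BALB/cJ. The BALB/cJ values lay within the BALB/cByJ range, and the log2 difference was -0.07 (95% interval -0.30 to 0.17), with 0.01 after median-of-ratios scaling.

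Among the adherens junction genes, Cdh2 (ID 12558, chr18:16588877-16809246), which encodes N-cadherin, the classical cadherin of the myocardium, was at 100.7, 121.33 and 112.23 in BALB/cByJ and 133.78, 101.32, 124.4 and 109.71 in BALB/cJ. The strains overlapped, the log2 difference was -0.07 (95% interval -0.32 to 0.18), and it was 0.01 after median-of-ratios scaling. Ctnnb1 (ID 12387, chr9:120933400-120960507) was at 197.93, 225.57 and 231.8 in BALB/cByJ and 222.31, 182.75, 206.1 and 193.34 in BALB/cJ. Here BALB/cByJ 2 and 3 were above every BALB/cJ library and BALB/cByJ 1 was not, and the log2 difference was 0.12 (95% interval -0.12 to 0.36, adjusted p = 0.59 from limma).
Ctnna1 (ID 12385, chr18:35118902-35254776) was at 207.02, 263.95 and 250.62 in BALB/cByJ and 282.35, 207.01, 222.38 and 192.88 in BALB/cJ. Its highest and lowest libraries were both BALB/cJ, with a log2 difference of 0.10 (95% interval -0.20 to 0.39) that became 0.42 (adjusted p = 0.205 from limma) with the Y-linked covariate, 0.21 without BALB/cJ 1 and 0.02 without BALB/cJ 4. Ctnna3 (ID 216033, chr10:63430098-65003667) was at 10.62, 12.84 and 10.74 in BALB/cByJ and 14.27, 8.41, 10.11 and 10.88 in BALB/cJ. Its spread was the widest of the 10, with the highest library 1.70 times the lowest, both of them BALB/cJ, and the log2 difference was 0.07 (95% interval -0.23 to 0.38). With the Y-linked covariate it was 0.37 (adjusted p = 0.309 from limma), and with 1 library left out it ranged from -0.03 to 0.20. Lrrtm2 and Lrrtm3, whose annotations overlap Ctnna1 and Ctnna3, had values of at most 0.13 and 0.22, and whether the counting used strand is not stated.

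Tjp1 (ID 21872, chr7:65296165-65527850) encodes zonula occludens-1, a scaffold that binds alpha-catenin and the gap junction protein connexin 43 at the disc. It was at 26.32, 31.42 and 25.64 in BALB/cByJ and 35.8, 26.02, 30.23 and 32.14 in BALB/cJ, with the top library again BALB/cJ 1. The log2 difference was -0.15 (95% interval -0.41 to 0.10, adjusted p = 0.512 from limma). It was -0.24 without BALB/cByJ 2, -0.08 without BALB/cJ 1, -0.0027 with the Y-linked covariate and -0.03 after centring on transcript length.

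The variation within strains followed the library across many of the genes. BALB/cJ 1 was the highest of the BALB/cJ libraries for 9 of 10 genes (all but Dsg2) and the highest of all 7 for 6 of 10. BALB/cByJ 2 was the highest BALB/cByJ library for 8 of 10, the exceptions being Ctnnb1 and Pkp2, which peaked in BALB/cByJ 3. BALB/cByJ 1 and BALB/cJ 2 were the lowest of their strains for 6 and 7 genes. The median deviation of the 10 genes was -0.101, 0.123 and -0.028 in BALB/cByJ and 0.25, -0.162, 0.012 and -0.044 in BALB/cJ. Their summed value was 808, 946 and 891, and 1001, 781, 874 and 792. BALB/cJ 1 and BALB/cByJ 2, where the sum was highest, were also the libraries with the lowest deviation of the shortest transcripts and the lowest total over all listed genes (543023 and 570822). Among the longest transcripts BALB/cJ 1 was at 0.058 and BALB/cByJ 2 at 0.009. The highest there was BALB/cJ 4 (0.149), where the median of the disc genes was -0.044. The part of transcript length or library total in the disc gene values was not tested. After the values of each library were centred on genes of like transcript length, 0 of the 10 genes were called, and Pkp2 differed by 0.28 (adjusted p = 0.117 from limma).
BALB/cByJ 3 split the group. In that library Ctnna1, Ctnnb1 and Pkp2 were 0.122, 0.157 and 0.196 above their means on the log2 scale, whereas Dsp, Jup and Tjp1 were at -0.31, -0.232 and -0.193.

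**Figure D3:**
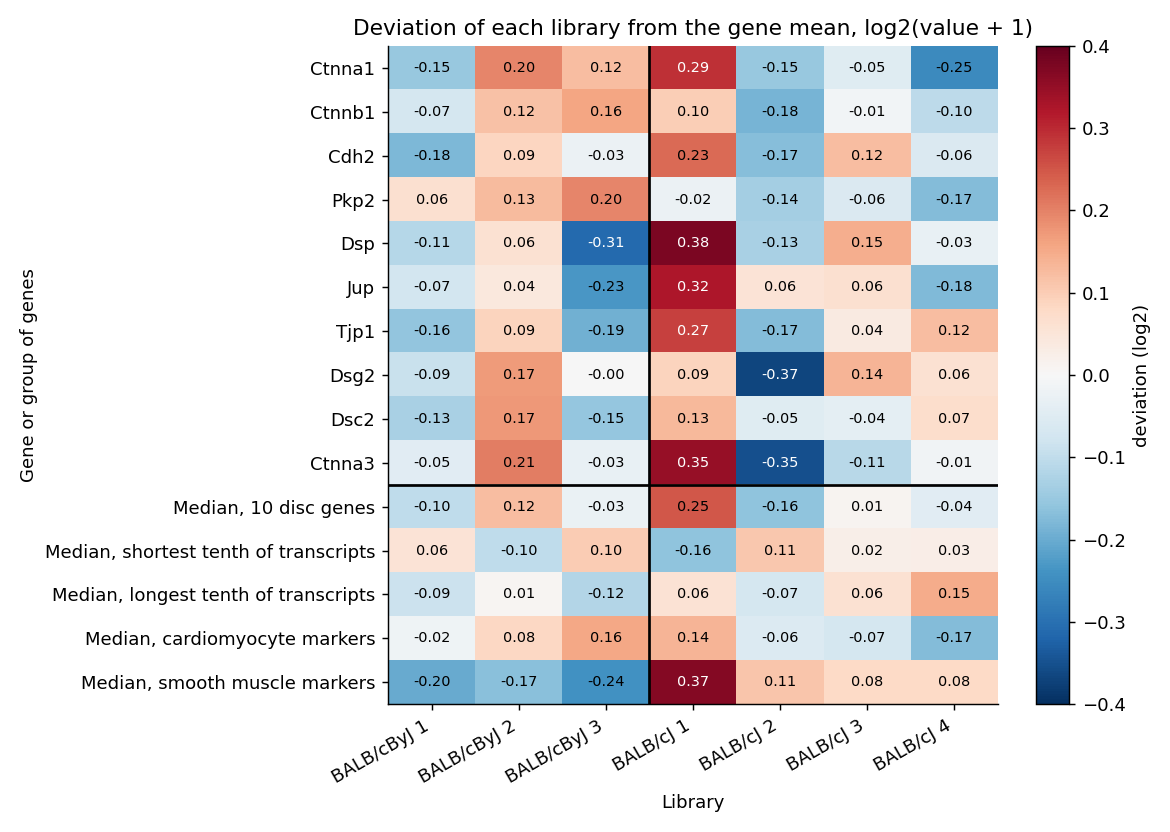
Deviation of each library from the gene mean on log2(value + 1), for the 10 disc genes (upper rows) and for medians of gene groups (lower rows); red is above and blue below the mean. BALB/cJ 1 is above the mean for all of the disc genes but Pkp2, BALB/cByJ 2 is above for all 10, and BALB/cByJ 3 is low for Dsp (-0.31) and high for Pkp2 (0.20).

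Ratios of partner genes within a library are free of any scaling of the whole library, and 5 were compared. They are not free of library differences by transcript length where the genes of a pair differ in length. That part was not tested. Pkp2 to Dsp, the desmosomal plaque pair, was 1.53, 1.42 and 1.93 in BALB/cByJ and 1.02, 1.35, 1.17 and 1.23 in BALB/cJ. Each BALB/cByJ library was above each BALB/cJ library, a log2 difference of 0.44 with p = 0.0286 by a two-sided exact permutation test, the smallest p that 35 splits allow. Adjusted over the 5 ratios by Benjamini-Hochberg it was 0.143 and did not pass. The log2 difference was 0.31 without BALB/cByJ 3 (exact p = 0.133) and 0.37 without BALB/cJ 1 (exact p = 0.1, the smallest that 3 against 3 allow).
Jup to Ctnnb1, the catenins that can replace each other on N-cadherin, was 0.338, 0.321 and 0.258 in BALB/cByJ and 0.397, 0.400, 0.357 and 0.322 in BALB/cJ. BALB/cByJ 1 lay above BALB/cJ 4, so the strains overlapped (log2 difference -0.28, exact p = 0.0857, adjusted 0.214). Without BALB/cByJ 3 the log2 difference was -0.16.
The other 3 ratios overlapped between the strains. Dsc2 to Dsg2 was 0.835 ± 0.0497 (SD over 3 pools) and 0.914 ± 0.14 (SD over 4 pools), with an exact permutation p of 0.4. Tjp1 to Cdh2 was 0.25 ± 0.0183 (SD over 3 pools) and 0.265 ± 0.0211 (SD over 4 pools), with an exact permutation p of 0.4. Ctnna3 to Ctnna1 was 0.0476 ± 0.00432 (SD over 3 pools) and 0.0483 ± 0.00677 (SD over 4 pools), with an exact permutation p of 0.971.

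**Figure D4:**
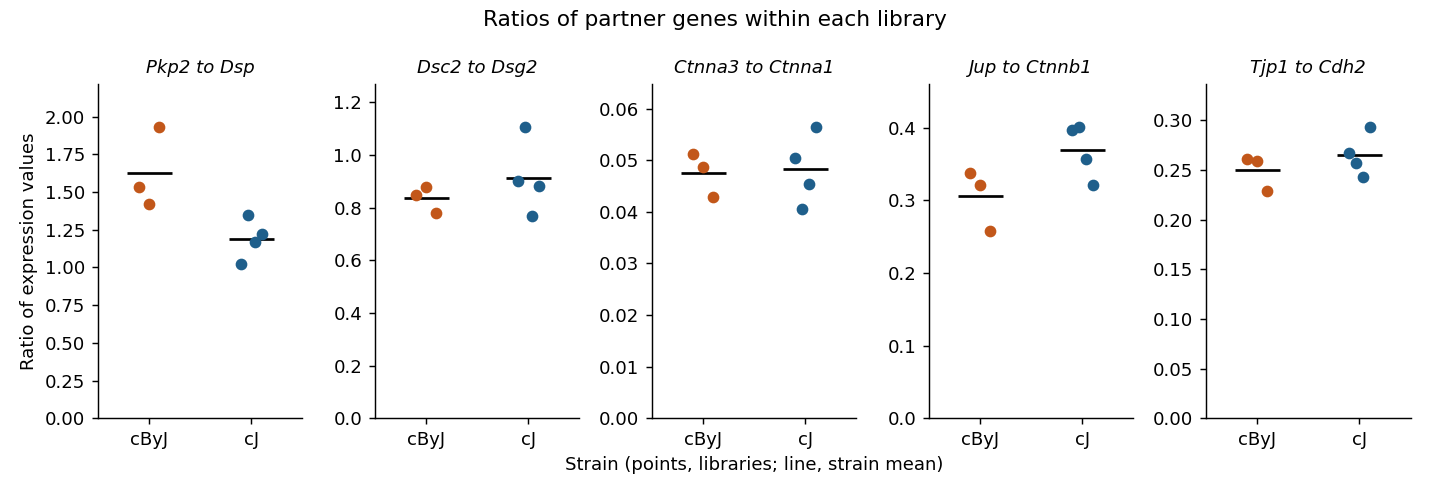
Ratio of expression values of 5 pairs of partner genes in each library (points), with strain means as lines and axes from 0; cByJ is BALB/cByJ (3 libraries) and cJ is BALB/cJ (4 libraries). The strains are apart for Pkp2 to Dsp only (1.42 to 1.93 against 1.02 to 1.35).

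The members were set beside 24 paralogs, of which 8 had enough signal for a test and 0 were called by limma. At an unadjusted p under 0.05, 1 passed, against 18.3% of all genes tested. Most paralogs of the desmosomal genes are skin or epithelial forms. Dsg2 made up 98.3% to 99.7% of the summed desmoglein value per library, Dsc2 at least 99.65% of desmocollins, and Dsp at least 99.05% of desmoplakin, periplakin and envoplakin together. The highest value in any library was 0.04 for Pkp1 and 0.06 for Pkp3, the epithelial plakophilins. Ctnna1 made up 94.7% to 96.1% of the summed alpha-catenin value in whole ventricle.
Pkp4, encoding p0071, a plakophilin relative found in both junction types, was at 59.72, 65.58 and 58.05 in BALB/cByJ and 66.58, 68.52, 73.92 and 75.45 in BALB/cJ. Every BALB/cByJ library was below every BALB/cJ library, as were those of 12.6% of all genes tested, and the log2 difference was -0.22 (adjusted p = 0.258 from limma). Ctnnd1, encoding p120-catenin, which steadies cadherins at the membrane, differed by -0.09 (adjusted p = 0.662 from limma). Ctnnal1, encoding alpha-catulin, differed by 0.24 (adjusted p = 0.388 from limma).
Of the other cadherins, the endothelial Cdh5 was at 80.49 to 115.95, Cdh13 at 38.3 to 50.63 and Cdh11, of mesenchymal cells, at 10.01 to 13.65, while Cdh2 made up 41.3% to 46.0% of the summed value of 8 cadherins. Cdh5 was below Cdh2 in every library, at a mean of 93.15 against 115. Summed endothelial markers were 1679 to 2359 in BALB/cByJ and 1525 to 2033 in BALB/cJ. By limma 0 of 9 were called and 1 had an unadjusted p under 0.05 (18.3% of all genes tested).

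Of 30 disc adaptors and actin linkers tested, 0 were called by limma, while 1 was higher and 6 lower in BALB/cByJ at an unadjusted p under 0.05 (5.06% and 13.3% of all genes tested), and their median log2 difference was -0.14. Plec, encoding plectin, which links desmin to membrane and Z-disc, was at 15.17, 14.49 and 11.57 in BALB/cByJ and 19.33, 18.41, 17.89 and 19.02 in BALB/cJ. The strains did not overlap, and limma gave a log2 difference of -0.42 (standard error 0.11, adjusted p = 0.0699). Tmem43, a nuclear envelope gene mutated in human arrhythmogenic cardiomyopathy, differed by -0.36 (adjusted p = 0.111), and Xirp1, an actin-binding protein of the disc, by -0.39 (adjusted p = 0.142), both from limma. Vcl, encoding vinculin, the partner of alpha-catenin, was at 49.7 ± 5.47 (SD over 3 pools) and 53.4 ± 7.21 (SD over 4 pools), and differed by -0.10 on the log2 scale.
Of 15 tested gap junction and channel partners, 0 were called by limma and 2 in each direction had an unadjusted p under 0.05. Over all genes tested, 5.06% were higher and 13.3% lower in BALB/cByJ at that threshold. Gja1, encoding connexin 43, was at 286.97, 331.03 and 392.7 in BALB/cByJ and 250, 257.15, 297 and 287.91 in BALB/cJ, with overlap through BALB/cByJ 1 (log2 difference 0.29, adjusted p = 0.233 from limma). Gja5, connexin 40 of the conduction system, differed by -0.32 (adjusted p = 0.154 from limma).
Of 18 tested genes of beta-catenin turnover and transcription, 0 were called by limma. At an unadjusted p under 0.05, 3 were lower in BALB/cByJ, where 13.3% of all genes tested were lower. They were Tcf7, Tcf7l1 and Tcf7l2, which encode TCF factors, the DNA-binding partners of beta-catenin. Tcf7l1 was at 9.11 ± 0.901 (SD over 3 pools) and 11.9 ± 1.31 (SD over 4 pools), and limma gave a log2 difference of -0.35 (adjusted p = 0.14). Tcf7l2 differed by -0.40 (adjusted p = 0.145 from limma). Tcf7, also a gene of T cells, was at 0.69 to 1 in BALB/cByJ and 1.07 to 6.25 in BALB/cJ, and differed by -0.95 (adjusted p = 0.102 from limma, 0.0278 without BALB/cJ 2, where the call was made).
Of 8 smooth muscle and pericyte markers, 2 were called lower in BALB/cByJ by limma, against 0.881% of all genes tested. They were Acta2 (adjusted p = 9.09e-03 from limma) and Cnn1 (adjusted p = 2.26e-03 from limma). The other markers of this list were not called, and Tagln alone had a log2 difference above 0 (0.07). The summed value of the list was 536 to 617 in BALB/cByJ and 789 to 1157 in BALB/cJ. Its largest part was Acta2, at a mean of 326 in BALB/cByJ and 650 in BALB/cJ. The highest median deviation of this list (0.366) was in BALB/cJ 1, the library highest in 6 of the 10 disc genes. Of 9 fibroblast, 9 epicardial, 8 macrophage, 6 atrial, 5 erythroid and 2 valve and nerve markers tested, 0 were called by limma. In that order 3, 2, 2, 3, 3 and 0 had an unadjusted p under 0.05, against 18.3% of all genes tested. Among these, 1 fibroblast and 2 atrial markers were higher in BALB/cByJ and the rest lower. The summed erythroid value was 4346 to 5375 in BALB/cByJ and 6360 to 14579 in BALB/cJ, and was highest in BALB/cJ 2, where Dsg2, Ctnna3 and Ctnnb1 had their lowest values. The part of these cells in the disc gene values was not tested.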

How the data were processed

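RNA-Seq of P4 ventricle pools from 3 BALB/cByJ and 4 BALB/cJ libraries was analysed. BGI Genomics prepared and sequenced the libraries. In the deposited table each gene has 1 signal value per library, scaled by the authors for depth and length (FPKM or TPM, which is not stated) and rounded to 2 decimals. The submitters' processing notes name mm10. Aligner and quantification: not given in the sources used here. Read numbers are unknown. Nothing read here says whether the pools came from separate litters, so p-values measure the spread between these pools.

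Genes averaging at least 0.5 (12715) were put on the log2(value + 1) scale and fitted by strain alone in limma 3.58.1 (R 4.3.3, mean-variance trend). Calls needed a Benjamini-Hochberg p, over all genes tested, under 0.05. The added 1 understates differences of low genes. Ratios were tested by exact permutation over libraries. Median transcript length came from GENCODE for 96.7% of genes tested, and coordinates and promoters from RefSeq (GRCm38.p6). Python 3.11.15, pandas 2.3.3 and matplotlib 3.10.9 were used. In simulated data on the 12715 genes, calls were made for 58.2% of genes changed 1.5-fold and 92.6% of those changed 2-fold, with 5% of calls false and noise independent between genes.

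The 10 genes and all lists were chosen with earlier results of these data known. Named genes are the 10 members and, per list, any called gene or up to 3 with the smallest p, with paralogs by level. Some genes that this rule names are not reported here. Vcl, Myl3, Pln, Tnni1, Myh6, Myh7, Ttn, Tagln and the promoters printed were chosen after values were seen. Alternatives were a pseudocount of 0.1, no filter, a mean of at least 2, quantile normalization, median-of-ratios scaling, the replicate number as a block, a covariate for the summed Y-linked genes and leaving out each library. Centring on 20 bins of transcript length and libraries 1 to 3 with no block were added after seeing the data.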

Additional observations from a re-analysis of the deposited data

How the results depend on the processing

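In each setting tried, 0 of the 10 disc adhesion genes were called by limma in either direction. The sign of Pkp2, Ctnnb1, Ctnna1 and Tjp1 was kept in every setting tried, though Tjp1 came down to -0.00271 with the Y-linked covariate and -0.0329 with centring on transcript length. The other 6 genes crossed 0 in at least 1 setting. Dsc2 differed by 0.00757 with quantile normalization, 0.00755 with median-of-ratios scaling, 0.0440 with centring on transcript length and 0.0136 with the Y-linked covariate. Cdh2 differed by 0.00756 with median-of-ratios scaling, 0.0396 with centring on length and 0.102 with the covariate. With the covariate Dsp was at 0.0188 and Jup at 0.0913. The Y-linked sums did not overlap between the strains (80.2 to 128 in BALB/cByJ, 0.04 to 37.6 in BALB/cJ). Differences fitted with this covariate are thus poorly separated from it. With 1 library left out, Dsg2 ranged from -0.0695 to 0.104, Cdh2 from -0.137 to 0.000763, Ctnna3 from -0.0314 to 0.201, Dsp from -0.30 to -0.12, Jup from -0.24 to -0.07, Dsc2 from -0.17 to -0.0059, Tjp1 from -0.24 to -0.08, Ctnnb1 from 0.07 to 0.19, Ctnna1 from 0.02 to 0.21 and Pkp2 from 0.19 to 0.26, while the log2 ratio of Ctnna3 to Ctnna1 ranged from -0.0925 to 0.0654. The median of all genes was -0.07 as deposited, -0.01 with either scaling and -0.12 with the covariate. The cause of these shifts was not tested.

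Over all genes, 98 were called higher and 112 lower in BALB/cByJ. These counts were 23 and 16 with no filter, 25 and 21 with the Y-linked covariate, and 50 and 32 in libraries 1 to 3 with no block. The lower count was 49 with quantile normalization and 59 with median-of-ratios scaling, beside 108 and 136 higher. With centring on length they were 147 and 81. With 1 library left out the higher count ranged from 36 to 85 and the lower from 28 to 105, and the count of related genes called lower from 0 to 1 (Tcf7 without BALB/cJ 2). With the replicate block on libraries 1 to 3 the counts were 38 higher and 20 lower, and Pkp2 had an adjusted p of 0.599. Same-numbered libraries deviated from their strain means with correlations of -0.194, -0.26 and -0.05 across genes. Libraries of unlike number ran from -0.184 to 0.389. With 3 and 4 libraries, deviations from a strain mean are bound to each other, so whether the numbers mark a pairing cannot be told. Read depth is unknown, so its part in these limits was not tested.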
